A study of Homo sapiens with 12 samples.

Results

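Keratin genes encode the proteins of the intermediate filaments of epithelial cells, and their messenger RNA was followed here in 2 EGFR-mutant lung cancer lines under an EGFR kinase inhibitor. A gene was included when its symbol in the platform annotation was KRT followed by digits and at most 1 letter, which leaves out the keratin-associated proteins. Only probe sets with a single gene symbol were used, and of the 9 keratin genes with several such probe sets the brightest was taken. This gave 44 keratin genes with 56 probe sets among the 19775 genes of the array. The measured members were 24 type I genes and 20 type II genes, with 23 on chromosome 17 and 21 on chromosome 12.

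The 4 groups, of 3 arrays each, were PC9 cells kept for 8 days in 2 µM erlotinib, PC9 cells kept as long in DMSO, HCC827 cells in the same concentration of erlotinib, and HCC827 cells in DMSO. PC9 and HCC827 are established human lung adenocarcinoma lines with activating mutations of the EGFR gene. Erlotinib inhibits the EGFR kinase and DMSO is its solvent, and all groups grew in serum-containing medium that was renewed once during the treatment. RNA of the cells left at harvest was amplified and hybridised to 1-colour Affymetrix HG-U133 Plus 2 arrays. According to the treatment notes the erlotinib cultures were plated at a higher cell number and in other vessels than the DMSO cultures, while the series description names flasks for all; such differences cannot be told apart from the drug. The labels do not say whether replicate arrays stem from independent cultures, so p-values measure the spread between these samples, which may be technical.

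Keratin filaments are built from pairs of 1 type I and 1 type II protein. Simple epithelia such as those of the lung and gut are known for KRT8 with KRT18, together with KRT7 and KRT19. Basal cells of stratified epithelia carry KRT5 with KRT14, upper epidermal layers switch to other pairs, wounded or fast-growing epidermis turns on KRT6 proteins with KRT16 and KRT17, and hair has keratins of its own. The type I genes other than KRT18 lie in a cluster on chromosome 17, and the type II genes lie with KRT18 in a cluster on chromosome 12.

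The promoters of 4 genes are shown because 2 of them, KRT5 and KRT20, changed strongly in 1 line, and the other 2, KRT33A and KRT33B, are neighbouring hair keratin genes that were higher in both lines, KRT33B in the fit without the low-signal filter. Each sequence covers 250 bases before to 50 bases after the gene's start in RefSeq (GRCh38.p14), read 5′ to 3′ on the gene's strand, which is the minus strand for all 4. Capitals mark TATAAA or ATAAAA, the letters of common TATA elements, on either strand. The windows are chr17:40885193-40885492 for KRT20, chr12:52520345-52520644 for KRT5, chr17:41350779-41351078 for KRT33A and chr17:41369764-41370063 for KRT33B.
KRT20: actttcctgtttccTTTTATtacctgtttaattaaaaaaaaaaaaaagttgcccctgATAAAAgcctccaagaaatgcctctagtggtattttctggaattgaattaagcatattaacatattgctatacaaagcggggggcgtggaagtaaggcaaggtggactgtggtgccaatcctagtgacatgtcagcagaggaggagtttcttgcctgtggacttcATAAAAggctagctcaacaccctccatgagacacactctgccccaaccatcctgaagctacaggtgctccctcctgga
KRT5: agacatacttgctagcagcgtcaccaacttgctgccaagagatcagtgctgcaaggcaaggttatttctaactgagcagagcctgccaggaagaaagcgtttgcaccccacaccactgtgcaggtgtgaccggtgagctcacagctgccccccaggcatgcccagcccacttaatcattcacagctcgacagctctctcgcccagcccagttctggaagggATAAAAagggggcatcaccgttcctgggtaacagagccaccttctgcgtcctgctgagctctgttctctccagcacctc
KRT33A: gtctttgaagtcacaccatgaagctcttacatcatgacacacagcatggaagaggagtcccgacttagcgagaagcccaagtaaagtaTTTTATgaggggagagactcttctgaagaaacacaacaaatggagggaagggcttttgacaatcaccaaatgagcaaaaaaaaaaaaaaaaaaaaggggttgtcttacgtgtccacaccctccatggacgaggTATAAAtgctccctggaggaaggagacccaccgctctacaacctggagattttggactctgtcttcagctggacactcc
KRT33B: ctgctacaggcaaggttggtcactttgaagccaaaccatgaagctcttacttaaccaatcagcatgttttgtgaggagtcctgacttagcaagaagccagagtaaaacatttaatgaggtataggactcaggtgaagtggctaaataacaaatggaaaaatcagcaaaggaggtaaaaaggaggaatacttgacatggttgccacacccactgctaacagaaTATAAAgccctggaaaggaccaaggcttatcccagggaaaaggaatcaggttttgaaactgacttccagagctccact
With the last base before the start counted as -1, TATAAA began at -29 in KRT33A and at -28 in KRT33B, and ATAAAA began at -29 in KRT5. The KRT20 window held 3 matches of ATAAAA. The window of KRT4, a gene that rose in both lines, was searched too but is not shown, and it held 0 matches of TATAAA and 0 of ATAAAA. RefSeq promoter windows were given for 29 of the 44 keratin genes, with 33 windows in all. TATAAA was found in 16 of these 33 windows, against 11.53% of all 35116 promoter windows, and ATAAAA, which can overlap it, in 19 of 33, against 15.99% of all windows. TGANTCA, the letters bound by AP-1 factors, was found in 0 of the 33 keratin windows, against 7.71% of all. GGGCGG, the core of GC boxes, was found in 6 of 33, against 44.95% of all, and AACNNGTT, letters bound by grainyhead-like factors, in 2 of 33, against 3.52% of all. All motifs were searched on both strands. A match describes letters in the window and shows no binding.

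Signals were compared on the scale of log2 of the signal plus 8, and every change below is on that scale, as erlotinib minus DMSO within a line. It is given with its standard error and the adjusted p of limma with Benjamini-Hochberg adjustment over the 13165 genes that passed a filter on low signal, and a gene was called at an adjusted p under 0.05. A gene passed when at least 1 group mean reached the median of the table, a signal of 13. By this rule 17 keratin genes were tested, 10 of type I and 7 of type II, and 9 of them reached the filter signal in every group. The members just inside by their highest group mean were KRT78 at 14.9, KRT3 at 22.5 and KRT9 at 31.03. Just outside were KRT33B at 12, KRT31 at 11.8 and KRT75 at 10.3. Over all 27 genes under the filter the group means lay between 0.3 and 12 and single arrays between 0.1 and 14.1. All 7 measured keratins of the hair follicle sheath and 11 of 12 hair keratins were among those 27. A member that passed only through the group where it was high had to differ, so the counts below describe the 17 and do not stand for all 44.

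In PC9, 6 of the 17 keratin genes were higher with erlotinib and 4 were lower, where 36.4% of all tested genes were higher and 28.3% lower. Of these, 4 changed at least 2-fold, against 13% of all tested genes. In HCC827, 4 of 17 were higher and 5 were lower, against 32.3% and 19.5% of all tested genes. Again 4 changed at least 2-fold, where 7.24% of all tested genes did. The median change of the 17 was 0.03 in PC9 and -0.08 in HCC827, and over all tested genes it was 0.05 in PC9 and 0.07 in HCC827. Within each line keratins were thus called in both directions, with a few large changes. Centring each array on its own median moved the median change of all genes by -0.15 in PC9 and by -0.08 in HCC827. After it, 5 keratins were higher and 5 lower in PC9, where 27% of all tested genes were higher and 38.2% lower, and 4 were higher and 6 lower in HCC827, against 24.6% and 24.3% of all tested genes.

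**Figure D1:**
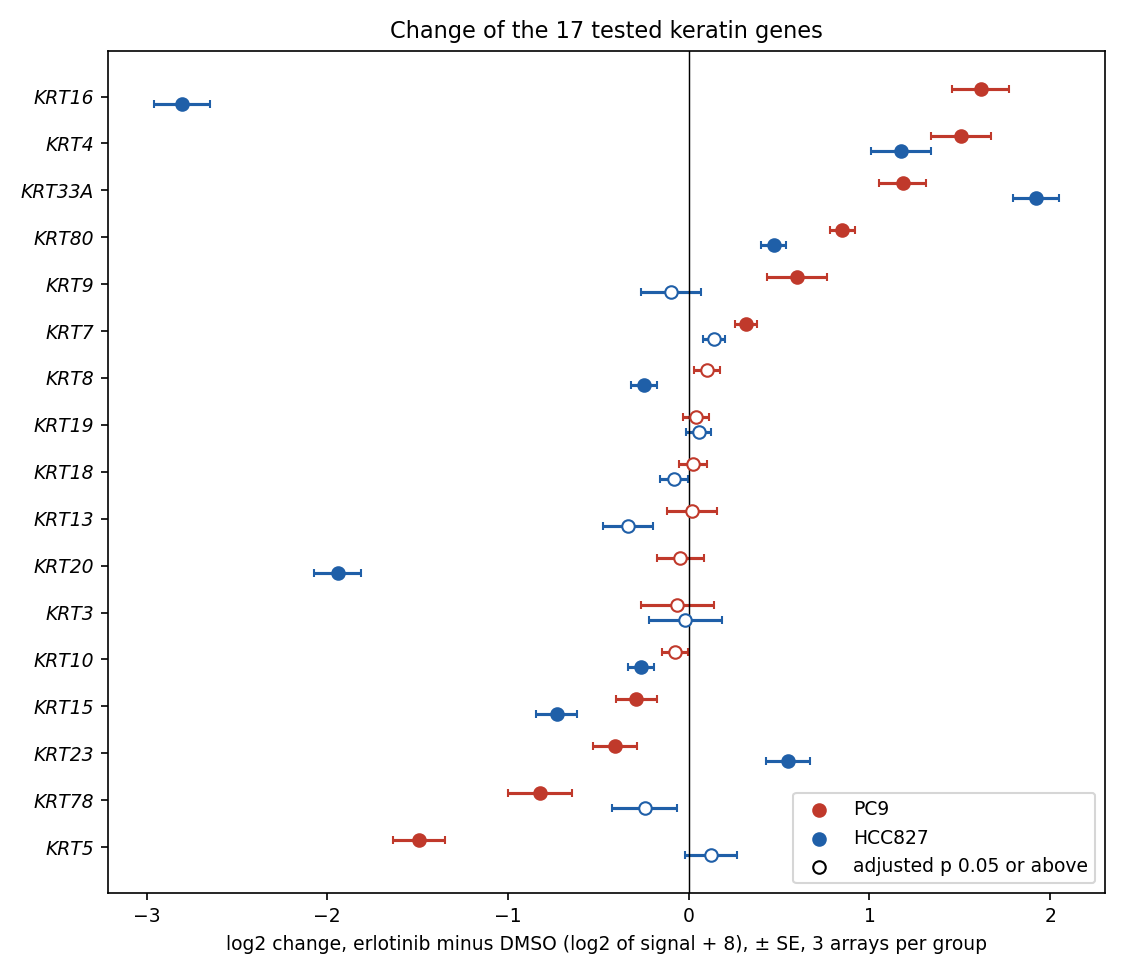
Log2 change (erlotinib minus DMSO) of the 17 tested keratin genes in each line, PC9 and HCC827, with bars from the standard errors of the limma fit. KRT16 lies at 1.62 in PC9 and at -2.80 in HCC827, while KRT18 and KRT19 lie near 0 in both lines.

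A sign of RNA quality differed between the treatments in HCC827. The ratio of actin signal at the 3′ end to that at the 5′ end was 2.45, 2.99 and 3.64 there with erlotinib, against 2.21, 2.10 and 2.19 with DMSO, higher on every erlotinib array. That difference had an exact two-sided permutation p of 0.1, the smallest that 3 arrays against 3 allow. In PC9 the ratio averaged 2.22 ± 0.27 with erlotinib and 2.18 ± 0.15 with DMSO (SD, n = 3 each; exact permutation p = 1). The same ratio of GAPDH averaged 1.37 ± 0.15 with erlotinib and 1.17 ± 0.02 with DMSO in HCC827 (exact permutation p = 0.1), and 1.18 ± 0.02 with erlotinib and 1.15 ± 0.02 with DMSO in PC9 (exact permutation p = 0.2). A fit without HCC827 erlotinib replicates 2 and 3, which have the highest ratios of both genes, was added after seeing the data, and in it the lone erlotinib array is assumed to vary like the other groups. In that fit the HCC827 log2 changes were -2.92 for KRT16, -2.01 for KRT20, 1.86 for KRT33A and 1.01 for KRT4, and all 4 were still called. With fewer arrays the HCC827 changes of KRT10 and KRT8 kept their size, at -0.29 and -0.28 against -0.26 and -0.25 with all arrays, but were not called (adjusted p = 0.0575 and 0.0566). KRT23 had 0.37 against 0.55 with all arrays and was not called (adjusted p = 0.100), and KRT13 was called (-0.59, adjusted p = 0.0225). Array medians lay between 11.1 and 14.5, the correlation across genes between arrays of the same group was between 0.993 and 0.997, and the number of arrays limits the precision of all values.

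KRT16, the type I keratin induced in wounded and hyperproliferative epidermis, changed in opposite directions in the lines. Its signals were 277, 354 and 299 on the PC9 erlotinib arrays, against 116, 77.2 and 96.5 on the PC9 DMSO arrays. In HCC827 they were 13.6, 21.8 and 11.8 with erlotinib, against 170.5, 158 and 138.5 with DMSO. Within each line the arrays of the treatments did not overlap, with the erlotinib arrays high in PC9 and low in HCC827. The log2 change was 1.62 ± 0.16 in PC9 (adjusted p = 1.5e-07) and -2.80 ± 0.16 in HCC827 (adjusted p = 4.7e-10). With 1 in place of 8 added the HCC827 change was -3.27, and with 32 it was -1.98. KRT6 and KRT17, the known companions of KRT16, were not analysed here.

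KRT5, the type II keratin of basal cells, fell in PC9. Its signals there were 271, 313.5 and 297 with erlotinib, against 924, 760 and 841 with DMSO. On the HCC827 arrays they were 1.2, 6.3 and 3.7 with erlotinib, against 1.7, 4.3 and 2.0 with DMSO, all below the filter signal. All 3 PC9 erlotinib arrays thus lay below all 3 PC9 DMSO arrays, while the HCC827 arrays overlapped. The log2 change in PC9 was -1.49 ± 0.15 (adjusted p = 1.52e-07), and in HCC827 it was 0.12 ± 0.15 (adjusted p = 0.502). KRT14, the type I partner of KRT5 in basal cells, was under the filter. Its signals were 5.7, 11.4 and 4.8 in PC9 with erlotinib, against 11.5, 9.5 and 9.4 with DMSO. KRT14 signals in HCC827 were 9.1, 8.3 and 3.9 with erlotinib, against 4.0, 6.0 and 4.8 with DMSO. The treatments overlapped in both lines, at signals below the filter on every array, so no change of KRT14 beside that of KRT5 could be measured.

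KRT15, another type I keratin of basal cells, fell in both lines. Its mean signal in HCC827 was 104 ± 14.7 with erlotinib, against 177 ± 1.0 with DMSO (SD, n = 3 each), a log2 change of -0.73 ± 0.12 (adjusted p = 6.17e-05). In PC9 it was 256 ± 42.6 with erlotinib, against 313 ± 28.2 with DMSO, a change of -0.29 ± 0.12 (adjusted p = 0.0372). The PC9 arrays of the treatments overlapped, and the call was lost without erlotinib replicate 1 (adjusted p = 0.121) or 3 (0.163), without DMSO replicate 1 (0.131) or 3 (0.071) and without the low-signal filter (0.0549).

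**Figure D2:**
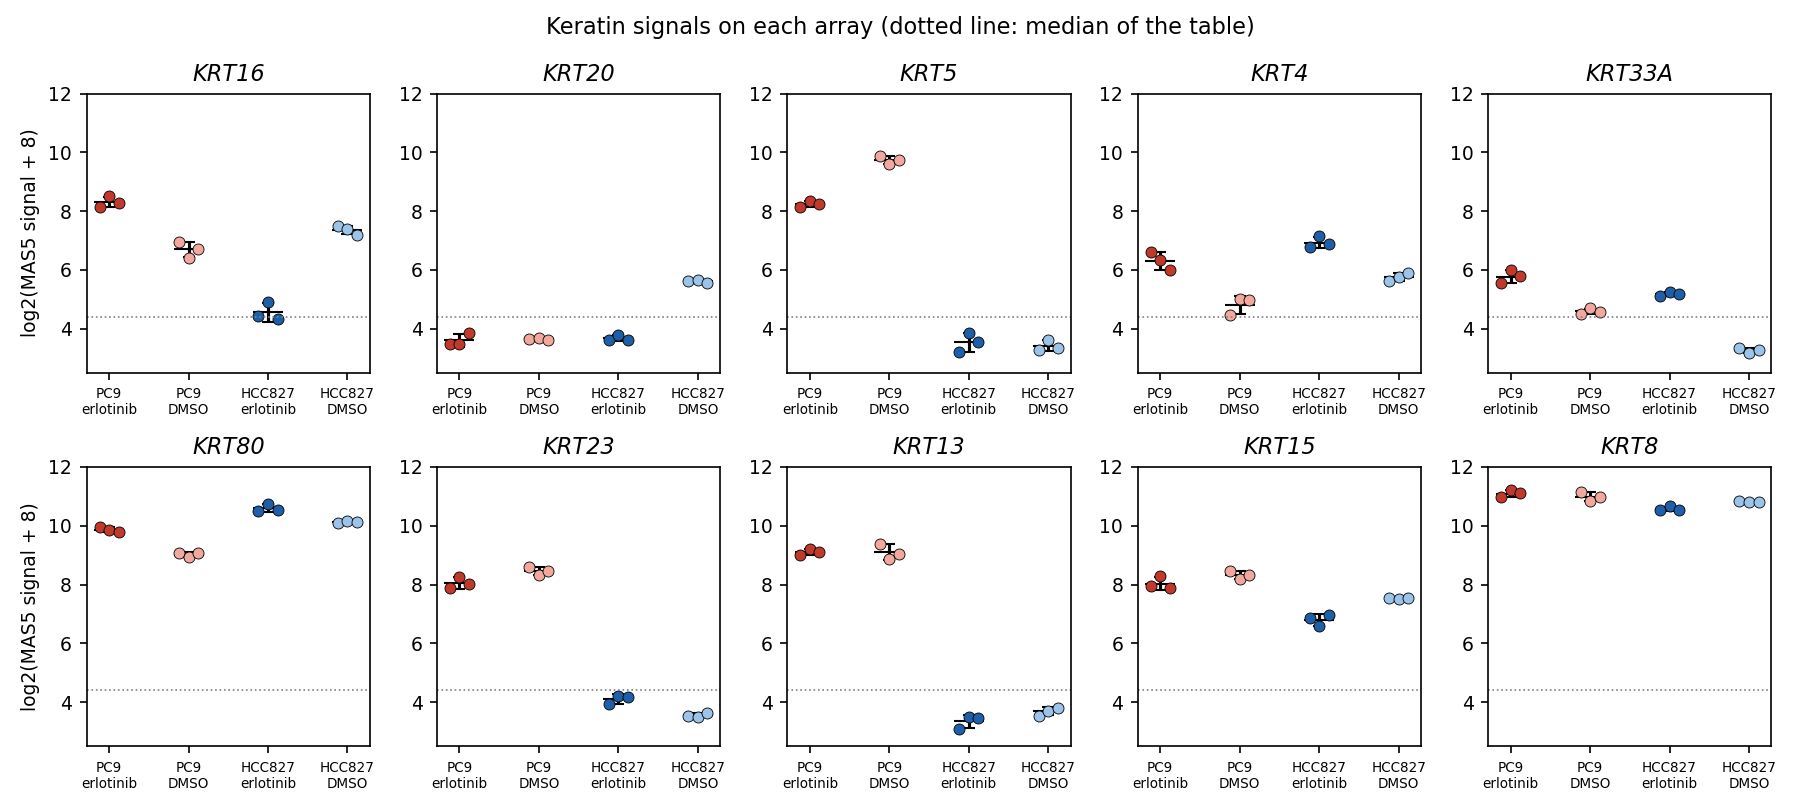
Signal of each array on a log axis for keratin genes with large changes and for type I and type II partners, with the groups in the order PC9 erlotinib, PC9 DMSO, HCC827 erlotinib and HCC827 DMSO. KRT16 is highest in PC9 erlotinib and lowest in HCC827 erlotinib, and KRT5 is near the bottom of the scale on every HCC827 array.

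KRT20, a type I keratin of gut epithelium, urothelium and Merkel cells, fell in HCC827. Its signals there were 4.1, 5.8 and 4.2 with erlotinib, against 41.3, 42.1 and 38.8 with DMSO. In PC9 they were 3.1, 3.1 and 6.4 with erlotinib, against 4.4, 4.8 and 4.3 with DMSO. The erlotinib arrays of HCC827 lay at the level of all PC9 arrays, and the HCC827 DMSO arrays alone were over the filter signal. The log2 change in HCC827 was -1.94 ± 0.13 (adjusted p = 4.16e-09), and it was -2.88 with 1 added and -0.99 with 32 added. KRT20 passed the filter through its HCC827 DMSO mean alone, so a fall in HCC827 was partly fixed by the selection. In PC9 the change was -0.05 ± 0.13 (adjusted p = 0.774).

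KRT8, KRT18, KRT19 and KRT7, the keratins most typical of simple epithelia, had log2 changes of at most 0.32 in either line on their brightest probe sets. The other 3 KRT7 probe sets gave 0.57, 1.71 and 0.42 in PC9. KRT18 had signals of 3255, 4031.5 and 3726 in PC9 with erlotinib, against 3874, 3339 and 3587 with DMSO. In HCC827 it had 2152, 2600.0 and 2392 with erlotinib, against 2576, 2552 and 2407 with DMSO. The groups overlapped in both lines, with log2 changes of 0.03 ± 0.08 in PC9 (adjusted p = 0.791) and -0.08 ± 0.08 in HCC827 (adjusted p = 0.406). KRT8, its type II partner, had 1999.5, 2348 and 2197 in PC9 with erlotinib, against 2267, 1828 and 2022 with DMSO. In HCC827 it had 1486, 1606 and 1465 with erlotinib, against 1834, 1797 and 1776 with DMSO. KRT8 thus overlapped between treatments in PC9 and was lower on every erlotinib array in HCC827, with changes of 0.10 ± 0.07 (adjusted p = 0.237) and -0.25 ± 0.07 (adjusted p = 0.00883) in PC9 and HCC827. In PC9 the KRT8 rise was called after quantile normalization (0.17, adjusted p = 0.0258) and without DMSO replicate 1 (adjusted p = 0.029), while centring gave -0.05, and it gave -0.12 for KRT18. The 95% interval of the KRT18 change in HCC827 ran from -0.24 to 0.08 and overlapped that of KRT8, from -0.40 to -0.09. Whether the HCC827 changes of KRT8 and KRT18 differ was not tested.

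KRT19, a small type I keratin of simple epithelia, averaged 3196 ± 348 in PC9 with erlotinib and 3104 ± 286 with DMSO, and 2207 ± 74.8 in HCC827 with erlotinib and 2124 ± 36.6 with DMSO (SD, n = 3 each). Its changes of 0.04 ± 0.07 in PC9 and 0.06 ± 0.07 in HCC827 were not called (adjusted p = 0.639 and 0.538). KRT7, the type II keratin of ductal and glandular epithelia, rose in PC9, with a mean of 2834 ± 255 with erlotinib and 2270 ± 55.8 with DMSO. Its log2 change there was 0.32 ± 0.06 (adjusted p = 0.000211), against 0.14 ± 0.06 in HCC827 (adjusted p = 0.0583), where the means were 2735 ± 163 with erlotinib and 2478 ± 83.5 with DMSO. After centring on the array median the KRT7 change in PC9 was 0.17 (adjusted p = 0.0634).

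KRT23, a type I keratin of some simple epithelia, fell in PC9 and rose in HCC827. Its signals in PC9 were 225, 301 and 249 with erlotinib, against 378, 313 and 342.5 with DMSO. The HCC827 signals were 7.2, 10.6 and 9.9 with erlotinib, against 3.6, 3.2 and 4.4 with DMSO. The arrays were apart in both lines, but every HCC827 signal was below the filter signal of 13, so the rise there is between values near the background of the table. The log2 change was -0.41 ± 0.12 in PC9 (adjusted p = 0.00752) and 0.55 ± 0.12 in HCC827 (adjusted p = 0.00128). With 1 added the HCC827 value was 1.10, and with 32 added it was 0.21 and not called (adjusted p = 0.0708).

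KRT4, a type II keratin of mucosal stratified epithelia, rose in both lines. Its signals were 90.1, 71.9 and 55.8 in PC9 with erlotinib, against 14, 23.8 and 23.1 with DMSO. In HCC827 they were 100.3, 133 and 109 with erlotinib, against 40.7, 45.5 and 51.6 with DMSO. Every erlotinib array was above every DMSO array of its line, with log2 changes of 1.51 ± 0.17 in PC9 (adjusted p = 7.35e-07) and 1.17 ± 0.17 in HCC827 (adjusted p = 2.2e-05). With 32 added the changes were 0.99 in PC9 and 0.90 in HCC827.

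KRT13, the type I partner of KRT4 in mucosa, did not pass the test in either line. It had 511, 589 and 538 in PC9 with erlotinib, against 661, 455 and 518 with DMSO. In HCC827 it had 0.5, 3.2 and 3.0 with erlotinib, against 3.6, 5.0 and 6.0 with DMSO. Its PC9 groups overlapped, and its HCC827 signals were all under the filter, with the erlotinib arrays below the DMSO arrays. The log2 changes were 0.02 ± 0.14 in PC9 (adjusted p = 0.914) and -0.34 ± 0.14 in HCC827 (adjusted p = 0.0535), and the HCC827 value was called after centring on the array median (-0.41, adjusted p = 0.029).

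The other 2 tested genes of the mucosal and corneal class were low. KRT78, a type II keratin of stratified epithelia, fell in PC9, with a mean of 5.0 ± 1.3 with erlotinib and 14.9 ± 1.2 with DMSO and a log2 change of -0.82 ± 0.18 (adjusted p = 0.000707). With 1 added it was -1.43, and with 32 added -0.34. Its HCC827 means were 4.7 ± 3.3 with erlotinib and 6.8 ± 2.3 with DMSO, with a change of -0.24 ± 0.18 (adjusted p = 0.266). KRT78 passed the filter through its PC9 DMSO mean alone, so a fall in PC9 was partly fixed by the selection. The second KRT78 probe set was low in every group, with log2 changes of -0.33 in PC9 and 0.13 in HCC827. KRT3, the type II keratin of cornea, averaged 21.5 ± 5.7 in PC9 with erlotinib and 22.5 ± 2.1 with DMSO, and 10.2 ± 5.7 in HCC827 with erlotinib and 9.8 ± 2.3 with DMSO. Its changes of -0.06 ± 0.20 and -0.02 ± 0.20 were not called (adjusted p = 0.801 and 0.949).

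KRT80, a type II keratin of differentiating epithelia, rose in both lines. Its signals were 979.5, 923 and 879 in PC9 with erlotinib, against 524, 479.8 and 528 with DMSO. In HCC827 they were 1442, 1714 and 1479 with erlotinib, against 1088, 1136 and 1103 with DMSO. The erlotinib arrays were above the DMSO arrays in each line. The log2 change was 0.85 ± 0.07 in PC9 (adjusted p = 1.76e-08) and 0.47 ± 0.07 in HCC827 (adjusted p = 2.87e-05).

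KRT33A, a type I hair keratin, rose in both lines. Its signals were 38.3, 56.0 and 46.6 in PC9 with erlotinib, against 14.6, 17.7 and 15.8 with DMSO. On HCC827 arrays they were 26.7, 30.2 and 28.2 with erlotinib, against 2.2, 1.0 and 1.6 with DMSO. Every erlotinib array exceeded every DMSO array of both lines, and the log2 change was 1.18 ± 0.13 in PC9 (adjusted p = 6.04e-07) and 1.92 ± 0.13 in HCC827 (adjusted p = 4.28e-09). At these signals the constant mattered: with 1 added the changes were 1.48 in PC9 and 3.52 in HCC827, and with 32 added they were 0.71 and 0.85. Its neighbour KRT33B, also a type I hair keratin and singled out after its values were seen, was under the filter, with signals of 12.2, 12.6 and 11.2 in PC9 with erlotinib, against 5.3, 2.5 and 5.0 with DMSO. In HCC827 KRT33B had 5.0, 6.1 and 5.1 with erlotinib, against 0.2, 0.2 and 3.7 with DMSO. In the fit without the filter its changes were 0.71 ± 0.14 (adjusted p = 0.000716) in PC9 and 0.54 ± 0.14 (adjusted p = 0.00851) in HCC827. The KRT33A probe set is of the kind whose probes can match related transcripts, so which of the closely related hair keratins gave its signal is uncertain.

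The suprabasal class had 2 tested genes. KRT10, the type I keratin of upper epidermal layers, fell in HCC827, with means of 668 ± 18.8 with erlotinib and 804 ± 32.1 with DMSO and a log2 change of -0.26 ± 0.07 (adjusted p = 0.00646). Its other probe sets gave -0.23 and -0.02 in HCC827, the second of them with 552 ± 31.6 with erlotinib and 560.0 ± 14.5 with DMSO, so the fall was not seen on all of them. In PC9 its means were 574 ± 38.3 with erlotinib and 607 ± 56.8 with DMSO, and the change of -0.08 ± 0.07 was not called (adjusted p = 0.377), although it was after centring on the array median (-0.22, adjusted p = 0.0165). KRT9, the type I keratin of palm and sole epidermis, rose in PC9, with 31.03 ± 7.6 with erlotinib and 17.7 ± 4.9 with DMSO and a change of 0.60 ± 0.17 (adjusted p = 0.00476), but the arrays overlapped. With 32 added the change was 0.34. Its HCC827 means of 8.3 ± 2.2 with erlotinib and 9.4 ± 1.4 with DMSO gave a change of -0.10 ± 0.17 (adjusted p = 0.641).

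The PC9 change minus the HCC827 change was then tested for each gene in the same fit. Of the 17 keratins, 6 had a positive difference and 3 a negative one, where 21.3% and 24% of all tested genes did, and after centring the split was 4 and 4, against 16.6% and 27.1%. As reported, 3 of the 17 differed at least 2-fold, against 10.2% of all tested genes. Those 3 were KRT16, with a difference of 4.42 ± 0.22 (adjusted p = 2.42e-10), KRT20, with 1.90 ± 0.18 (adjusted p = 5.28e-07), and KRT5, with -1.61 ± 0.20 (adjusted p = 1.01e-05). The KRT20 difference was partly fixed by the selection, since KRT20 passed the filter through its HCC827 DMSO mean alone. KRT16 and KRT23 were called in opposite directions in the lines. For KRT4 no difference between the lines was called (difference 0.33 ± 0.24, 95% interval -0.17 to 0.83, adjusted p = 0.267), and the interval leaves room for a difference of up to 0.83. KRT80 rose more in PC9 (difference 0.38 ± 0.10, adjusted p = 0.00486). KRT33A had the larger log2 change in HCC827 (difference -0.74 ± 0.18, adjusted p = 0.00371), but it was -2.04 with 1 added and -0.13 with 32 added (adjusted p = 0.302). With 1 and with 32 added the KRT20 difference was 2.75 and 0.97, and that of KRT23, -0.96 ± 0.17 as reported (adjusted p = 0.000291), was -1.52 and -0.59.

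Without the drug most of the tested keratins differed in level between the lines. Of the 17, 7 had reached the filter signal in 1 line only, so for these a difference between the lines was largely fixed by the filter. Between PC9 DMSO and HCC827 DMSO, 11 of 17 keratins were higher in PC9 and 5 were lower, where 36.8% of all tested genes were higher and 39.4% lower, and 6 of the 17 differed at least 2-fold, against 23.6% of all tested genes. KRT5, KRT13 and KRT23 were well above the filter signal on every PC9 DMSO array and under it on every HCC827 array. Their PC9 minus HCC827 differences on the log2 scale were 6.32 ± 0.15 for KRT5 (adjusted p = 4.86e-16), 5.41 ± 0.14 for KRT13 (adjusted p = 2.18e-15) and 4.91 ± 0.12 for KRT23 (adjusted p = 1.38e-15), and they depend on the constant added to signals near 0, since with 32 added they were 4.65, 3.95 and 3.39. KRT33A was higher in PC9 too, by 1.32 ± 0.13 (adjusted p = 8.74e-08). KRT20 (-1.96 ± 0.13, adjusted p = 6.22e-10) and KRT80 (-1.11 ± 0.07, adjusted p = 2.63e-10) were at least 2-fold lower in PC9. With 32 added the differences of KRT33A and KRT20 were 0.52 and -0.99.

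Smaller differences between the untreated lines were seen in most other keratins. The log2 difference was -0.95 for KRT4, -0.66 for KRT16 and -0.41 for KRT10 on its brightest probe set, all lower in PC9, and 0.79 for KRT15, 0.78 for KRT3, 0.64 for KRT78 and 0.55 for KRT9, all higher in PC9. Those of KRT4, KRT3, KRT78 and KRT9 were -0.58, 0.38, 0.27 and 0.26 with 32 added. KRT16 averaged 310 ± 39.7 in PC9 with erlotinib and 15.7 ± 5.3 in HCC827 with erlotinib, the opposite order to the DMSO groups, where it averaged 96.4 ± 19.2 in PC9 and 156 ± 16.1 in HCC827. The simple keratins KRT18 and KRT19 were higher in PC9 by 0.52 and 0.54, but quantile normalization gave 0.22 and 0.31. KRT8 was higher in PC9 by 0.17 (adjusted p = 0.0387), but the arrays overlapped, quantile normalization gave 0.00 (adjusted p = 0.955), and leaving out PC9 DMSO replicate 1 gave an adjusted p of 0.22. KRT7 was not called (-0.13, adjusted p = 0.0662), although it was after quantile normalization (-0.37). Its other 3 probe sets gave -0.35, -1.20 and -0.23, and the mean of all 4 was called (-0.48, adjusted p = 3.6e-05).

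**Figure D3:**
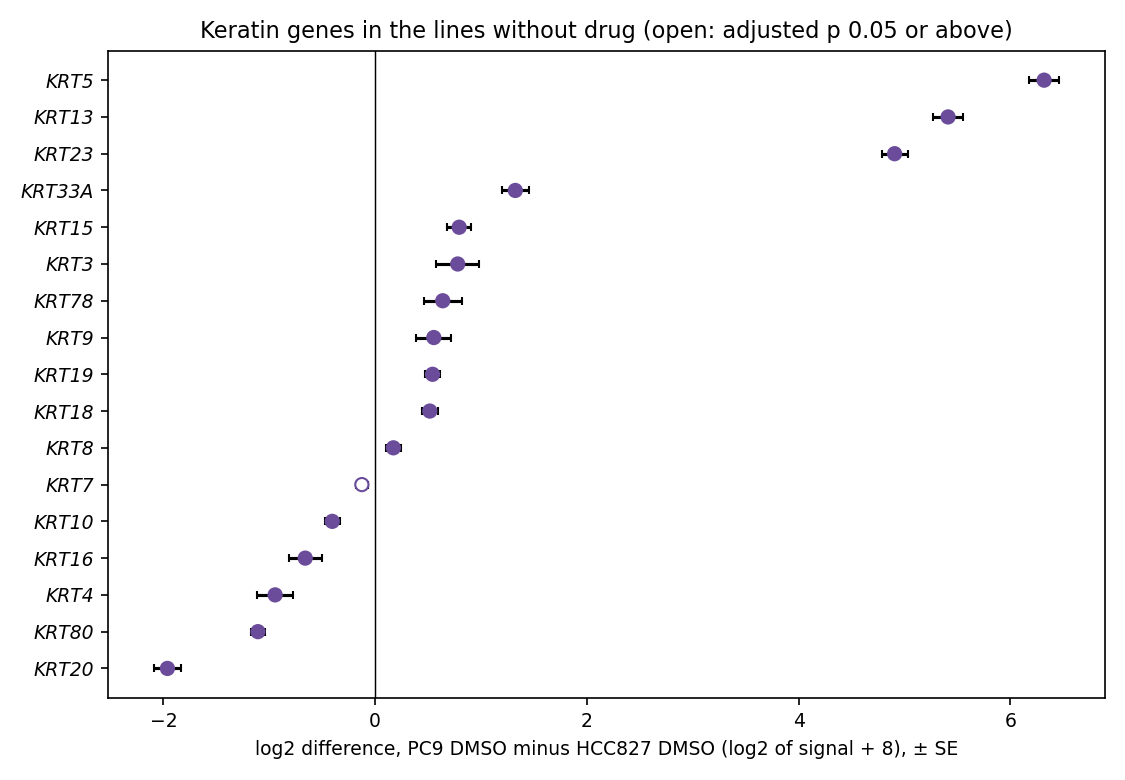
Log2 difference of the 17 tested keratin genes between PC9 and HCC827 in DMSO, with bars from the standard errors of the limma fit. KRT5, KRT13 and KRT23 stand at 4.91 or above and KRT20 at -1.96, while KRT8 and the brightest KRT7 probe set lie near 0.

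Along the keratin clusters, large changes often stood beside small ones. In the order given by RefSeq (GRCh38.p14), KRT20 and KRT23 are neighbours in the chromosome 17 cluster, and in HCC827 KRT20 fell by 1.94 while KRT23 rose by 0.55 on the log2 scale. KRT16 lies between KRT14, which was under the filter, and KRT17. KRT4 rose beside KRT3, which was not called in either line, and KRT78, which lies beyond 1 further gene, fell in PC9. KRT80 and KRT7, at one end of the chromosome 12 cluster, both rose in PC9. KRT33A and KRT33B, whose promoters are shown above, are neighbours that were both higher with erlotinib in both lines, KRT33B in the fit without the filter.

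**Figure D4:**
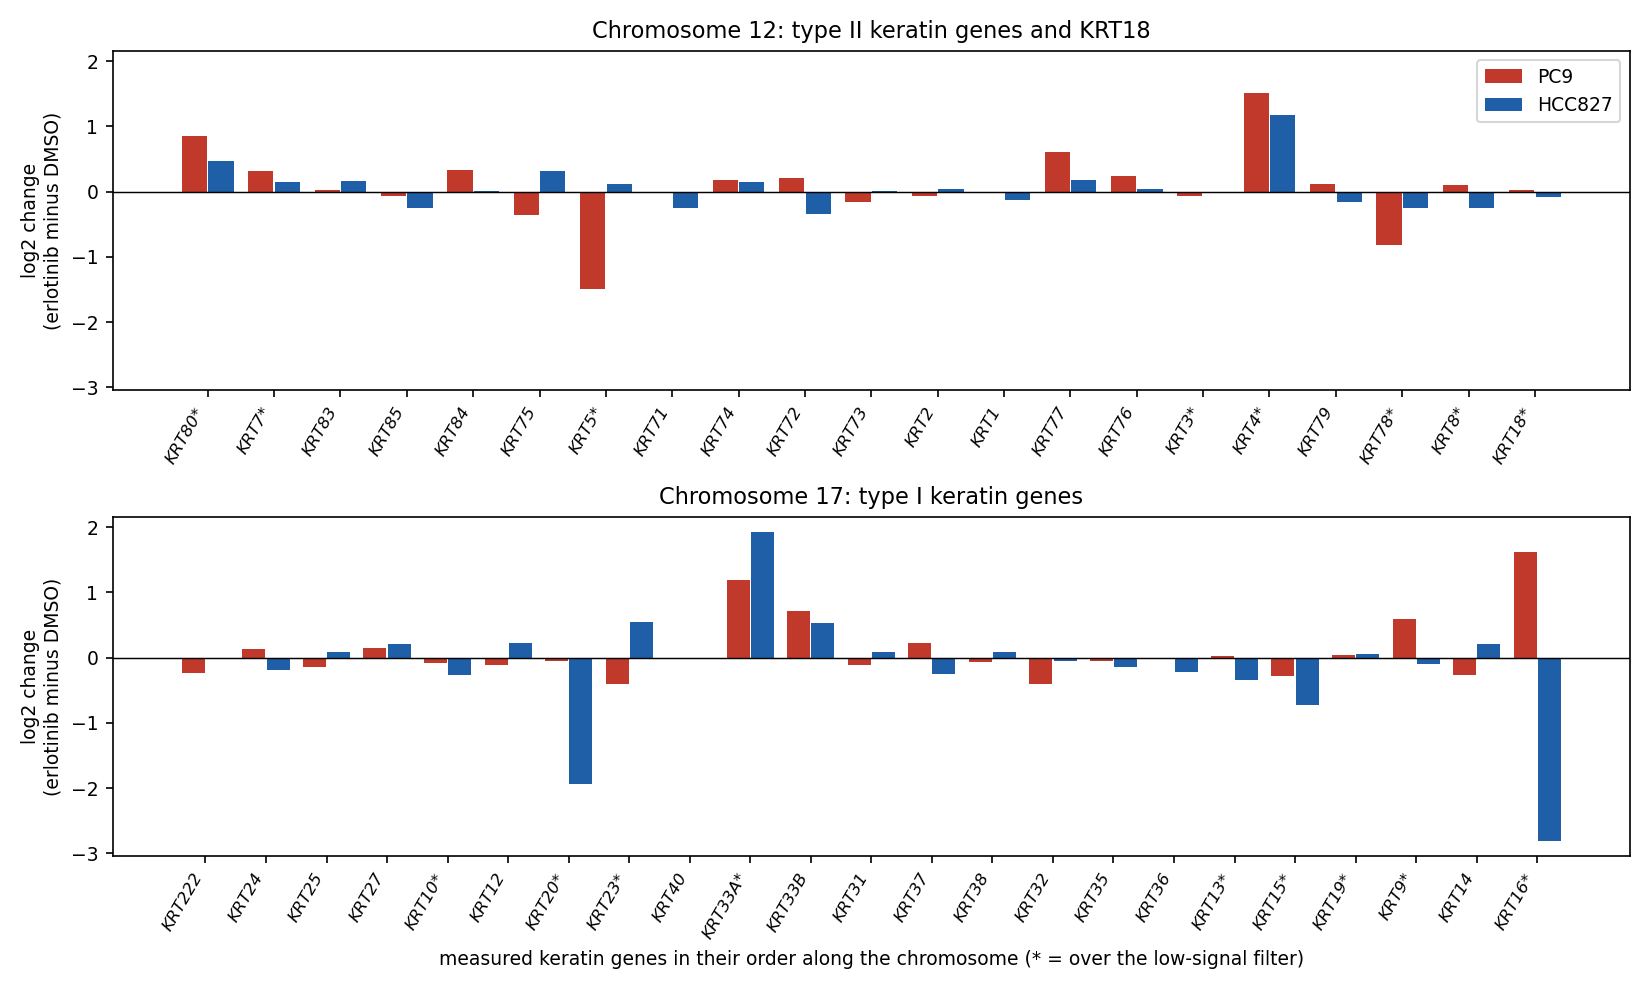
Log2 change of the measured keratin genes in PC9 and in HCC827, from the fit without the low-signal filter, in RefSeq order along the clusters on chromosomes 12 and 17. Large rises and falls stand beside genes near 0, for example KRT4 at 1.51 in PC9 beside KRT3 at -0.06.

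Other probe sets of the same gene were compared with the brightest one where the gene was tested. For KRT10 the 3 probe sets did not agree. In HCC827 they changed by -0.26, -0.23 and -0.02, and their mean by -0.17 (adjusted p = 0.0373). Between PC9 DMSO and HCC827 DMSO they differed by -0.41, -0.15 and 0.04, and their mean by -0.17 (adjusted p = 0.0245). The second KRT4 probe set gave changes of 1.35 in PC9 and 1.20 in HCC827, close to the 1.51 and 1.17 of the first. All 4 KRT7 probe sets had positive changes in PC9, between 0.32 and 1.71, and the mean of all 4 changed by 0.75 in PC9 and 0.13 in HCC827. The 1.71 came from a dimmer probe set with 174 ± 11.9 in PC9 with erlotinib and 47.8 ± 7.2 with DMSO (SD, n = 3 each). The size of the KRT7 rise in PC9 therefore depends on which probe set is read. In 8 of the 17 tested genes the brightest probe set was of the kind that can match more than 1 transcript, KRT8, KRT18 and KRT33A among them.

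**Figure D5:**
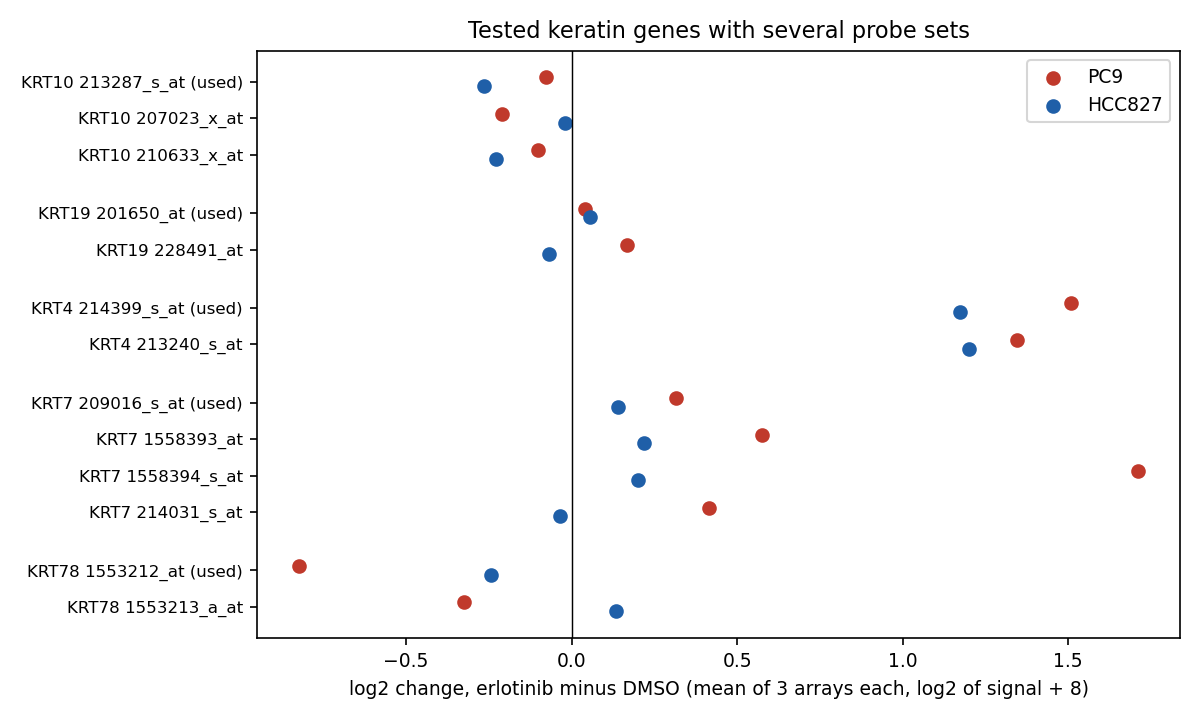
Log2 change of every probe set of the tested keratin genes that have several, in PC9 and in HCC827. The KRT4 probe sets lie close together, and those of KRT7 spread between 0.32 and 1.71 in PC9.

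Genes of proteins that anchor or bind keratin filaments were followed beside the keratins, and their lists can be read against all tested genes, of which 36.4% were higher and 28.3% lower in PC9 (median 0.05) and 32.3% higher and 19.5% lower in HCC827 (median 0.07). Desmosomes join the filaments of neighbouring cells, and of 8 tested desmosome genes 1 rose and 2 fell in PC9, with a median log2 change of -0.03, while 4 rose and 1 fell in HCC827, with a median of 0.09. JUP, the desmosomal protein plakoglobin, rose by 1.09 in PC9 and 0.59 in HCC827, and PKP3, a plakophilin, fell by 0.74 in PC9 and 0.69 in HCC827. DSC3, a desmocollin of stratified epithelia, rose in HCC827, with signals of 264 ± 34.2 with erlotinib and 46.6 ± 3.4 with DMSO and a change of 2.31 ± 0.15 (adjusted p = 3.29e-09). In PC9 DSC3 was near 0 in both groups. Centring on the array median left 1 desmosome gene called higher and 5 lower in PC9, and 2 higher and 1 lower in HCC827.

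Of 9 tested plakin and hemidesmosome genes, which tie filaments to junctions and to the basement membrane, 4 rose and 2 fell in PC9 (median 0.18) and 5 rose and 1 fell in HCC827 (median 0.27). Among all tested genes 36.4% were higher and 28.3% lower in PC9, and 32.3% higher and 19.5% lower in HCC827. After centring 4 of the list were higher and 3 lower in PC9, and 4 higher and 1 lower in HCC827. EPPK1, the plakin epiplakin that binds keratins, had the largest change of this list, 2.38 ± 0.09 in PC9 (adjusted p = 9.91e-13) and 1.85 ± 0.09 in HCC827 (adjusted p = 6.99e-11). Its signals were 2003 ± 243 in PC9 with erlotinib and 376 ± 30.6 with DMSO. ITGA6, an integrin subunit of hemidesmosomes, fell by 1.47 in PC9 and 0.41 in HCC827, and DST, the plakin dystonin, rose by 0.79 in PC9 and 0.19 in HCC827.

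Of 11 tested intermediate filament genes other than keratins, 4 rose and 5 fell in PC9 (median -0.03) and 5 rose and 4 fell in HCC827 (median 0.13). Over all tested genes the shares higher and lower were 36.4% and 28.3% in PC9, and 32.3% and 19.5% in HCC827. LMNA, which encodes nuclear lamins A and C, fell by 0.64 in PC9 and 0.99 in HCC827. INA, the neuronal filament protein internexin, fell by 0.73 in PC9 and rose by 1.26 in HCC827. VIM, vimentin of mesenchymal cells, rose by 0.98 ± 0.27 in HCC827 (adjusted p = 0.00575) and by 0.68 ± 0.27 in PC9 (adjusted p = 0.0343), where the DMSO arrays spread widely, at 126 ± 89.3 (SD, n = 3). The PC9 arrays of the treatments overlapped, and the VIM call there was lost after centring (adjusted p = 0.0582) and after quantile normalization (0.0803). Centring left 3 genes of the list higher and 5 lower in PC9, and 5 higher and 5 lower in HCC827.

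Among 7 tested keratin-binding proteins, 1 rose and 3 fell in PC9 (median -0.07) and 0 rose and 2 fell in HCC827 (median 0.08), while quantile normalization gave 2 higher and 2 lower in PC9 and 1 higher and 2 lower in HCC827. The shares of all tested genes were 36.4% higher and 28.3% lower in PC9, and 32.3% and 19.5% in HCC827. SFN, the 14-3-3 protein sigma that binds keratins, fell by 0.48 in PC9 and 1.04 in HCC827, and TCHP, trichoplein, fell by 0.63 in PC9 and 0.33 in HCC827. TRADD, a death receptor adaptor that binds keratins, rose in PC9 by 0.98 and had a change of 0.24 in HCC827 (adjusted p = 0.102). Of 12 tested epithelial transcription factors, 7 rose and 5 fell in PC9 (median 0.27) and 6 rose and 3 fell in HCC827 (median 0.25), beside the same shares of all tested genes. After centring 5 were higher and 5 lower in PC9 (median 0.12), and 4 higher and 3 lower in HCC827 (median 0.18). ELF3, an epithelial ETS factor, rose by 1.84 in PC9 and 0.58 in HCC827, KLF4, a factor of epithelial differentiation, fell by 1.52 in PC9 and 0.70 in HCC827, and GRHL3, a grainyhead-like factor, fell by 0.60 in PC9 and rose by 1.55 in HCC827.

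Markers of other cell types were checked in the same groups. Epithelial markers were bright everywhere: EPCAM averaged 2242 and 2756 in PC9 with erlotinib and DMSO, and 2454 and 2632 in HCC827 with erlotinib and DMSO. EPCAM fell in PC9, by 0.29 ± 0.05 (adjusted p = 0.000169), and its HCC827 change of -0.10 ± 0.05 was not called (adjusted p = 0.129). Of 7 tested epithelial markers, 1 rose and 2 fell in PC9 (median -0.03) and 2 rose and 2 fell in HCC827 (median 0.02), but centring left 1 higher and 3 lower in both lines and quantile normalization gave 2 higher and 2 lower in PC9. Against this, 36.4% of all tested genes were higher and 28.3% lower in PC9, and 32.3% and 19.5% in HCC827. CLDN4, a claudin of tight junctions, rose by 0.49 in PC9 and 0.53 in HCC827, while ST14, a membrane protease, and RAB25, an epithelial RAB protein, fell in HCC827 by 0.63 and 0.33. Of 5 leukocyte markers 3 were measured and 0 passed the filter, and their summed signal was 6.3 to 8.4 in PC9 with erlotinib, 4.4 to 12.5 in PC9 with DMSO, 3.6 to 6.4 in HCC827 with erlotinib and 4.2 to 7.1 in HCC827 with DMSO. PECAM1 and CDH5, the endothelial markers that passed the filter, were under the filter signal in both HCC827 groups, and in PC9 PECAM1 fell by 0.71 and CDH5 rose by 0.72. The summed signal of the 4 endothelial markers was 653 to 705 in PC9 with erlotinib and 895 to 988 with DMSO, and 11.4 to 19.0 in HCC827 with erlotinib and 12.2 to 12.6 with DMSO. Of 6 fibroblast markers 2 were tested and both rose in both lines, LUM, the proteoglycan lumican, by 3.57 in PC9 and 3.77 in HCC827, and COL1A1, a fibrillar collagen, by 1.93 in PC9 and 1.56 in HCC827. The summed signal of the 6 was 384 to 467 in PC9 with erlotinib and 79.4 to 107 with DMSO, and 624 to 690 in HCC827 with erlotinib and 156 to 183 with DMSO. That sum was mostly LUM and COL1A1, since COL1A2, COL3A1, PDGFRB and DCN were under the filter, with at most 11.6 on any array. In bulk RNA, fewer cells of a type and less RNA per cell cannot be told apart, and the part of these markers in the keratin changes was not tested.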

How the data were processed

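The signal intensities are those of the deposited table, 1 linear value per probe set and array, made by the authors with MAS5 (version not given in the sources used here), per the submitters' processing notes. From the values, each array was scaled to the same trimmed mean of 150 over all probe sets but the outer 2%. The table has no detection calls. Of 54675 probe sets, 41091 carry 1 gene symbol in the platform annotation and 1801 carry several, which were left out. The brightest probe set of a gene, by mean log2 signal over all arrays, was used, and suffix letters in probe set names (s, x or a) were read as possible matches to related transcripts.

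Log2 of the signal plus 8 was fitted in limma 3.58.1 (R 4.3.3) to all 12 arrays, with a mean for each group. Variances were moderated with a trend on intensity. The p-values were adjusted by Benjamini-Hochberg over 13165 genes. Named were all tested keratins. Array values were given for those called at least 2-fold, in a line or between the lines, without overlap of arrays, and for KRT14, KRT8 and KRT18 as partners, and up to 3 called genes of each list were named. The members and lists were chosen with earlier results of these data known. The procedure was tested on simulated data. Alternatives were other constants, scalings, filters, probe set rules, variance models and arrays left out.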

Additional observations from a re-analysis of the deposited data

Results flagged for a closer look

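For 9 keratin genes the erlotinib change differed between the lines by the test of the difference itself (limma, PC9 change minus HCC827 change, n = 3 arrays per group). On the log2 scale the difference was 4.42 for KRT16 and 1.896 for KRT20, the genes that fell most in HCC827, and -1.614 for KRT5, which fell in PC9. It was -0.9608 for KRT23 and -0.7393 for KRT33A, and 0.698 for KRT9, 0.442 for KRT15, 0.3792 for KRT80 and 0.3458 for KRT8. KRT16 and KRT23 were called in opposite directions in the lines, and of the other 7 none was. The HCC827 signals of KRT5, KRT9 and KRT23 were below the filter signal in both treatments.

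A probe set annotated to both LOC100653049 and KRT34 lies outside the keratin rule, because it carries more than 1 symbol, and it was singled out after its values were seen. KRT34 is a neighbour of KRT33B in the chromosome 17 cluster and a type I hair keratin. Its signals were 139.7, 160.5 and 145.0 in PC9 with erlotinib, against 33.6, 36.5 and 31 with DMSO, and 120.5, 122.0 and 109.4 in HCC827 with erlotinib, against 20.9, 18.6 and 16.1 with DMSO. The log2 change was 1.907 in PC9 and 2.242 in HCC827, every erlotinib array was above every DMSO array, and no test was run on it.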

How the results depend on the processing

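No alternative run turned the direction of a called keratin change. The counts of called keratins (10 in PC9, 9 in HCC827, 9 for the difference between the changes and 16 between the untreated lines) stayed within 1.5 times of these values. Leaving out each array in turn gave 9 to 10, 9 to 10, 7 to 10 and 15 to 17, no filter gave 11, 10, 8 and 20, and a filter at the 70th percentile, which left fewer keratins to test, gave 7, 7, 6 and 11. With the replicate number as a block (replicate block) the counts were 9, 9, 8 and 15, and the calls lost were KRT15 in PC9 (adjusted p = 0.0557), KRT15 for the difference (0.0563) and KRT8 between the lines (0.0531). Deviations of same-numbered arrays correlated at -0.26, -0.19 and -0.02 in PC9 and at 0.01, 0.13 and 0.01 in HCC827. Those of differently numbered arrays lay between -0.07 and 0.24 in PC9 and between -0.14 and 0.12 in HCC827. With 3 arrays per group such correlations cannot decide whether arrays shared a batch or a culture, and the labels do not say.

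Single arrays decided some weak calls. The KRT15 difference lost its call without PC9 erlotinib replicate 2 (adjusted p = 0.0987), PC9 DMSO replicate 2 (0.0798) or 3 (0.0642), HCC827 erlotinib replicate 2 (0.102) or any HCC827 DMSO replicate (0.0642, 0.0599 and 0.0645), and the KRT9 difference lost it without PC9 erlotinib replicate 3 (0.0661), PC9 DMSO replicate 1 (0.0552) or 3 (0.053), HCC827 erlotinib replicate 1 (0.0569) or HCC827 DMSO replicate 2 (0.0538). KRT8 between the untreated lines lost it without PC9 DMSO replicate 1 (0.22) or 3 (0.071) or any HCC827 DMSO replicate (0.0587, 0.0794 and 0.0931). KRT13 in HCC827 gained a call without PC9 DMSO replicate 1 (0.0306) or 2 (0.0403), HCC827 erlotinib replicate 2 (0.0416) or HCC827 DMSO replicate 1 (0.0427), KRT7 in HCC827 without PC9 erlotinib replicate 2 (0.0225) or HCC827 erlotinib replicate 1 (0.0274), and the KRT78 difference without HCC827 erlotinib replicate 3 (0.0075) or DMSO replicate 1 (0.0431). The KRT13 difference gained one without PC9 DMSO replicate 1 (0.038) and KRT7 between the lines without PC9 erlotinib replicate 2 (0.0269). Centring ended the calls of the KRT15 and KRT8 differences (0.108 and 0.0679). The cause of these changes was not tested. With no detection calls, low signals such as those of KRT20, KRT23 and KRT33A limit the size of a change.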
